A study of Mus musculus with 6 samples.

Results

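Transcript levels of 4 genes of antigen presentation, H2-Eb1, H2-DMa, H2-T23 and Psmb10, were followed in 3 clonal lines of the mouse T lymphoma EL4. The genes were found by their full name in either of the authors' 2 deposited lists of differing probe sets. Each gene had 1 such probe set, so 4 of the 45101 probe sets on the array are described, and 4 of the 2451 that carried any deposited name entry. All 4 came from the list of V7 and WT2, and H2-DMa was also in that of C5 and V7. The authors chose those lists on these same arrays for a difference, so a difference of a member between V7 and WT2, and of H2-DMa between C5 and V7, is no independent evidence. The comparisons of C5 with WT2 and of C5 with V7 are not independent of that choice for any member. They use the same WT2 or V7 arrays.

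Each line is 1 clone of EL4, which arose in a C57BL mouse, and each gave 2 aliquots of cells, for 6 arrays. WT2 is labelled sensitive to the phorbol ester PMA, does not adhere to plastic and does not metastasise. V7 is resistant to PMA, adherent and metastatic, and C5 is resistant, adherent and highly metastatic. All cells were left overnight in medium free of serum and had no other treatment. The labels do not say that aliquots were separate cultures. The p-values therefore weigh differences between lines against the spread of aliquots, which may be technical, and not of clones. Only 1 clone stands for each phenotype.

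MHC class I molecules carry peptides from the cytosol to CD8 T cells, and class II molecules carry peptides from endosomes to CD4 T cells. H2-Eb1 encodes the beta chain of the class II molecule I-E. Mice of the b haplotype, to which C57BL belongs, carry a defective gene for its alpha chain, H2-Ea. H2-DMa encodes a chain of H2-DM, which helps class II molecules exchange the invariant chain fragment for peptide. H2-T23 encodes Qa-1, a class I molecule of limited variation that is a ligand of the CD94-NKG2A receptor. Psmb10 encodes a catalytic subunit of the immunoproteasome, the interferon-inducible form of the protease that makes class I peptides. Mouse T cells usually carry class I and little or no class II.

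The start regions of H2-Eb1 and H2-T23 are shown because these 2 MHC genes differed in opposite directions between the lines, and that of Psmb10 because it lies outside the MHC. The sequences are RefSeq's for build GRCm38.p6 of C57BL/6J and cover 250 bases before to 50 bases after the annotated start, read 5′ to 3′ on the strand of the gene. Searched on both strands were the Y box core ATTGG, the X box core CCNNGNAAC, the interferon response element GAAANNGAA and the GAS element TTCNNNGAA. Another sequence, CTAGCAAC, was added after the windows had been read and can overlap a match of the X box core. Capitals mark all matches in the strand shown, and no matches overlapped. H2-Eb1 lies at chr17:34305617-34305916 on the plus strand, H2-T23 at chr17:36032652-36032951 on the minus strand and Psmb10 at chr8:105938343-105938642 on the minus strand.
H2-Eb1: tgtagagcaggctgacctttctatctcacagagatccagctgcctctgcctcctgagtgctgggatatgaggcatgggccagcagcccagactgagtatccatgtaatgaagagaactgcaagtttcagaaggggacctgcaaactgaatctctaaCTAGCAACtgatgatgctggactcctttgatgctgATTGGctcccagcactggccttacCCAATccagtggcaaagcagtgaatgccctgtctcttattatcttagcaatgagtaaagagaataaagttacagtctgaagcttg
H2-T23: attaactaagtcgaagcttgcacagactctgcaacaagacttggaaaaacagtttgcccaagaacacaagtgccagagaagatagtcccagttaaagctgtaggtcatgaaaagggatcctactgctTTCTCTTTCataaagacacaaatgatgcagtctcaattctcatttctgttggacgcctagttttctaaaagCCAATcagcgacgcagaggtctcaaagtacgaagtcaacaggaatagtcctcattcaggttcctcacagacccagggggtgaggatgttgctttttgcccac
Psmb10: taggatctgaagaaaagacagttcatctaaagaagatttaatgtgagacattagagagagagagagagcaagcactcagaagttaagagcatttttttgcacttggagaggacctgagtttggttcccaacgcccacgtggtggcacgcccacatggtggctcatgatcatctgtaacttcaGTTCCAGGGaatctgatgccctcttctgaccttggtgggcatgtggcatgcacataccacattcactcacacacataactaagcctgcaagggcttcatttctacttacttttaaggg

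The H2-Eb1 window held CTAGCAAC from 94 to 87 bases before the start, a Y box core from 59 to 55 and another, on the opposite strand, from 35 to 31, and no match of the X box core CCNNGNAAC. The H2-T23 window held a Y box core on the opposite strand from 52 to 48 bases before the start and an interferon response element, also on the opposite strand, from 123 to 115. In the Psmb10 window only the X box core matched, on the opposite strand, from 68 to 60 bases before the start. RefSeq has 2 windows for H2-DMa, one with 2 matches of the X box core and the other with 1 of the Y box core. Among 32851 windows of the same length, 37.4% held the Y box core, 15.1% the X box core, 8.56% the interferon response element, 8.30% the GAS element and 1.32% CTAGCAAC. These matches describe letters only and were set against no measurement of binding.

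The arrays were scaled alike, but their medians differed between lines. Values are MAS5 signals, the linear summary of one probe set on one array, and every array had the same 2% trimmed mean of 125. Median signals ran from 15.8 to 21.5. The ratio of 3′ to 5′ signal of the Gapdh control, a sign of RNA or labelling quality, averaged 1.64 ± 0.181 for WT2, 0.924 ± 0.0519 for V7 and 0.991 ± 0.229 for C5 (SD, n = 2 each), so it moved with the differences from WT2, and its part in them was not tested. For beta-actin the ratio was 1.93 ± 0.149, 2.27 ± 0.326 and 2.39 ± 0.741. In RNA from whole cultures, fewer cells with a transcript and less transcript per cell cannot be told apart.

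The T cell receptor chain Cd3e had a signal of 2008 ± 200 in WT2, 982 ± 92.6 in V7 and 1031 ± 184 in C5 (SD, n = 2 each), so a defining T cell transcript was measured in each line. Of 15 T cell markers 5 had a named probe set, with a summed signal of 4012 to 4098 per array in WT2, 2544 to 2574 in V7 and 2236 to 2743 in C5. Within that list, Cd2 had a mean of 841 in WT2 but 4.08 in V7 and 3.86 in C5, and the brightest probe set of the receptor chain Cd247 had 596, 5.38 and 1.16, so these defining markers were near the floor in V7 and C5. Cd5 had 606, 128 and 46.2. The adaptor Trat1 had 3.78 in WT2, 1439 in V7 and 1407 in C5, so in the sum it offset part of the fall of the others. Of the 5 named markers, 4 were called lower in V7 than in WT2 and 1, Trat1, higher. In C5, 3 were called lower than in WT2, Trat1 was higher and Cd3e did not pass. None of 8 markers of B cells, which carry class II, had a named probe set. Of 10 myeloid and dendritic markers 1 was named, the progenitor receptor Flt3, at 9.88 to 23.4 per array in WT2, 86.4 to 90.3 in V7 and 52.0 to 73.0 in C5. Of 6 natural killer markers 1 was named, Gzma, at 24.97 to 38.3, 108 to 130.2 and 249 to 334. Of 7 fibroblast markers 2 were named, and they moved in opposite directions. Acta2 had a mean of 5987 in WT2, 49.6 in V7 and 46.9 in C5 (log2 differences from WT2 of −6.82 and −6.86, both called), whereas Pdgfra had 2.29, 75.9 and 47.7 (3.46 and 2.85, both called). Their summed signal per array was 5591 to 6388, 121 to 129.6 and 89.4 to 99.7. The part of other cell types in the differences below was not tested.

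The class II beta chain gene H2-Eb1 was dim in WT2 and bright in V7 and C5. Its signal was 14.3 and 1.78 in the WT2 aliquots, 179 and 172 in those of V7, and 121 and 214 in those of C5. Both WT2 values lay far below the other 4, and the C5 aliquots spread to either side of V7. The H2-Eb1 probe set was assigned by its deposited name alone, while those of the other members also matched a RefSeq accession. On the scale of log2(signal + 5.04), where 5.04 is the 25th percentile of all signals, H2-Eb1 was higher in V7 than in WT2 by 3.98 (SE 0.42, limma adjusted p = 3.86e-05) and in C5 than in WT2 by 3.86 (SE 0.42, adjusted p = 4.86e-05). The ratio of mean signals was 21.9 for V7 over WT2 and 20.9 for C5 over WT2. Because WT2 aliquot 2 lay below the added constant, the size depends on it: adding 1 gave a V7 difference of 4.76, and adding the median signal of 18.1 gave 2.93, both of them called. A call is a Benjamini-Hochberg adjusted p below 0.05 with at least 2-fold change, from one limma model over the 27022 probe sets with a mean signal above 11.7.

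H2-DMa was dimmer, with 13.2 and 23.2 in WT2, 64.3 and 60.8 in V7, and 30.04 and 60.1 in C5. The V7 values were close together and above both WT2 values, whereas the C5 aliquots differed, one near V7 and the other between V7 and WT2. The V7 minus WT2 difference was 1.57 (SE 0.37, limma adjusted p = 0.00844). This call was lost without V7 aliquot 1 (adjusted p = 0.0608) and without the variance trend (0.0505). C5 was above WT2 by 1.07 (SE 0.37), which did not pass with an adjusted p of 0.0510. Over the alternatives this p ran from 0.0246 to 0.371. It passed after quantile normalization (1.29, adjusted p = 0.0246), with the aliquot number as a block (1.07, adjusted p = 0.0452), without WT2 aliquot 2 (1.39, adjusted p = 0.0307) and without C5 aliquot 1 (1.52, adjusted p = 0.0287).

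H2-T23, the class I member, went the other way. Its signal was 1654 and 1537 in WT2, 652 and 666 in V7, and 485 and 564 in C5. The lines did not overlap, and their order was WT2, V7, C5 from high to low. The log2 difference from WT2 was −1.27 in V7 (SE 0.13, limma adjusted p = 3.08e-05) and −1.60 in C5 (SE 0.13, adjusted p = 4.90e-06). MHC class I genes are close relatives of one another, and the array files do not say how far this probe set also binds other class I transcripts.

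Psmb10, the immunoproteasome subunit, rose in both adherent lines. The aliquots read 397 and 278 in WT2, 1048 and 949 in V7, and 1057 and 1664 in C5. All 4 values of V7 and C5 exceeded both of WT2, and the second C5 aliquot stood above the rest. The log2 difference from WT2 was 1.57 in V7 (SE 0.21, limma adjusted p = 2.56e-04) and 1.98 in C5 (SE 0.21, adjusted p = 4.33e-05).

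**Figure D1:**
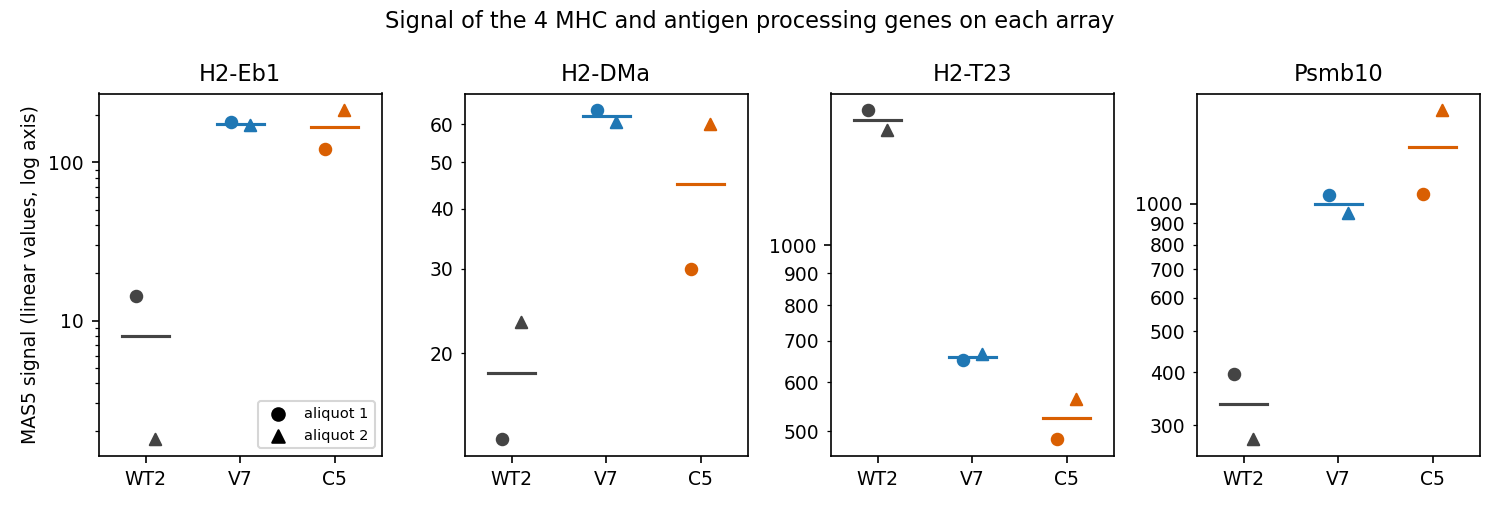
MAS5 signal (log axis) of H2-Eb1, H2-DMa, H2-T23 and Psmb10 on each of the 6 arrays, with circles for aliquot 1, triangles for aliquot 2 and a bar at the mean of each line. WT2 is lowest for H2-Eb1, H2-DMa and Psmb10 and highest for H2-T23, and the C5 aliquots of H2-DMa lie apart at 30.04 and 60.1.

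In all, 4 of the 4 members were called between V7 and WT2, 3 higher and 1 lower. Over all tested probe sets 12.5% were called, 5.29% higher and 7.24% lower, but the members were named through a list of differences between these lines, so nothing is read from their share. The median log2 difference was 1.57 over the members and −0.13 over all tested probe sets. Over the 2441 tested probe sets with a deposited name entry, from which the members were taken, it was 0.84. Between C5 and WT2, 3 members were called, 2 higher and 1 lower, where 13.0% of all tested probe sets were called, 5.58% higher and 7.46% lower. The medians were 1.53 for the members, −0.07 for all and 0.75 for those with a deposited name entry. Both comparisons use the same WT2 arrays. The arrays of the lines did not overlap for any member in either comparison, as for 62.3% of all tested probe sets between V7 and WT2 and 59.6% between C5 and WT2. After quantile normalization the median of all tested probe sets in V7 minus WT2 moved from −0.13 to 0.01, and the members then read 4.10 for H2-Eb1, 1.80 for H2-DMa, −1.33 for H2-T23 and 1.54 for Psmb10.

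The comparison of C5 with V7 sets the highly metastatic clone against the metastatic one, and no member passed in limma, where 0.0999% of all tested probe sets were called. H2-Eb1 differed by −0.12 (95% interval −1.05 to 0.80, adjusted p = 0.993) and H2-DMa by −0.50 (−1.30 to 0.30, adjusted p = 0.918). H2-T23 differed by −0.33 (−0.62 to −0.04), with an unadjusted p of 0.0277 and an adjusted p of 0.680. Psmb10 differed by 0.41 (−0.06 to 0.88, adjusted p = 0.826). At an unadjusted p below 0.05, 1 of the 4 members and 6.50% of all tested probe sets passed. The arrays of the lines did not overlap for H2-DMa, H2-T23 and Psmb10, which was so for 38.9% of all tested probe sets. The intervals leave room for a 2-fold difference in H2-Eb1 and H2-DMa, so the missing calls do not show equal levels.

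**Figure D2:**
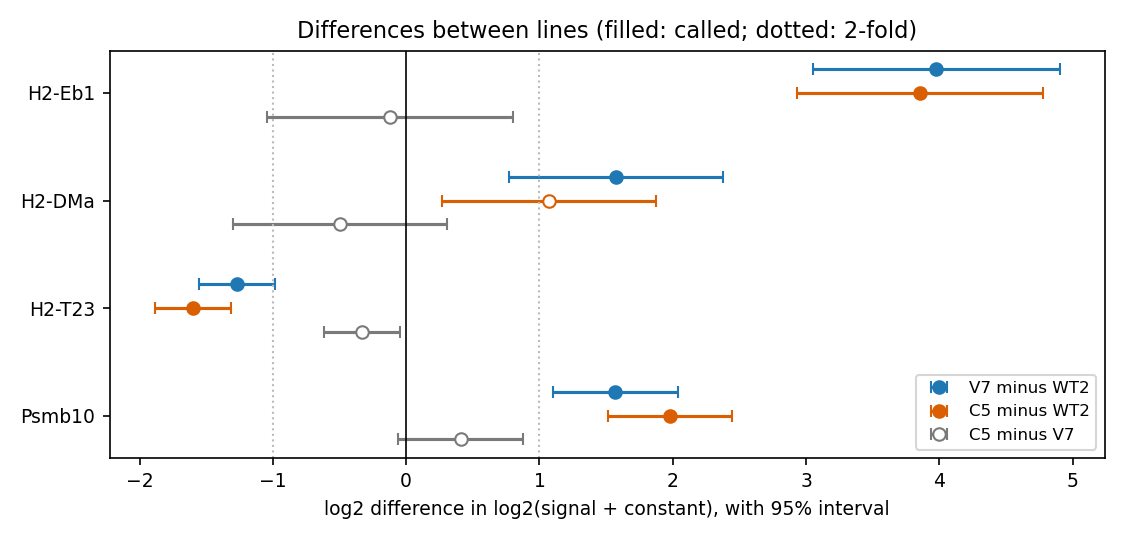
Log2 difference of each member between lines on the log2(signal + 5.04) scale, with 95% intervals, filled where called and with dotted lines at 2-fold. The intervals of both comparisons with WT2 lie on one side of 0 for every member, while that of C5 minus V7 includes 0 for all but H2-T23.

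The authors' deposited table gave the same directions between V7 and WT2, with a ratio of 10.09 for H2-Eb1, 2.83 for H2-DMa and 2.43 for Psmb10, all higher in V7, and of 2.29 for H2-T23, lower in V7. Its adjusted p for Psmb10 was 0.0502 in the authors' deposited table, above the usual limit, and those of the other members were 0.0268 to 0.0450. For H2-DMa the authors' deposited table of C5 and V7 gave a value 2.06-fold lower in C5 with an adjusted p of 0.0236. That table placed V7 at a log2 mean of 6.88, whereas the authors' deposited table of V7 and WT2 placed it at 6.07. The log2 means in the authors' deposited table of C5 and V7 had standard errors of 0.044 for V7 and 0.068 for C5. In the value table, where the C5 aliquots read 30.04 and 60.1, the H2-DMa difference was −0.95 without C5 aliquot 2 and −0.05 without C5 aliquot 1. The size of the difference in MAS5 signals thus rests on C5 aliquot 1, the lower of the C5 arrays, which does not extend to the authors' value.

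Other genes of the pathway were taken from lists of class I, class II, proteasome, peptide loading, endosomal, regulator and partner genes. Of 78 genes 11 had a named probe set, including none of the other 9 class II genes. Those 11 were divided between V7 and WT2: 4 were higher, 4 were lower and 3 did not pass, with a median log2 difference of 0.62. Among the 2441 tested probe sets with any deposited name entry, 1038 were higher, 994 lower and 409 not called, with a median of 0.84. Between C5 and WT2, 2 of the 11 were higher, 4 lower and 5 did not pass, with a median of 0.54. For the named entries, that comparison had 977 higher, 963 lower and 501 not called, with a median of 0.75. None passed between C5 and V7, where the median was −0.07.

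The other catalytic immunoproteasome subunits rose with Psmb10 in V7. Psmb8 had a signal of 1354 ± 297 in WT2, 2958 ± 30.6 in V7 and 2565 ± 423 in C5 (SD, n = 2 each). Its log2 difference was 1.14 in V7 (SE 0.16, limma adjusted p = 2.62e-04), falling short of 2-fold at 0.92 when WT2 aliquot 2 was left out, and 0.93 in C5 (SE 0.16, adjusted p = 0.00106), below 2-fold. The C5 difference passed at 1.15 without WT2 aliquot 1 and at 1.10 without C5 aliquot 1. Psmb9 went from 923 ± 24.1 in WT2 to 2120.4 ± 141 in V7 (1.19, SE 0.17, adjusted p = 3.14e-04), with 1253 ± 354 in C5 (0.41, SE 0.17, adjusted p = 0.0967). From V7 to C5, Psmb9 differed by −0.78 (unadjusted p = 5.83e-04, adjusted p = 0.145) and Psmb10 by 0.41 as given above, neither of which passed. Psmb8 and Psmb9 lie within the class II region. In RefSeq's order of protein-coding genes on chromosome 17, Psmb9 is 3 genes after H2-DMa, Psmb8 is 5 after and H2-Eb1 is 10 after, while H2-T23 is 108 genes after. Psmb10 is on chromosome 8.

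Among other class I genes the directions were mixed. H2-Q1, a Q region class I gene, read 0.374 and 1.19 in WT2, 41.0 and 39.4 in V7, and 77.5 and 41.4 in C5. It was higher by 2.96 in V7 (SE 0.43, limma adjusted p = 4.14e-04) and by 3.41 in C5, although both WT2 values were below the added constant and adding 1 or the median gave a V7 difference of 4.57 or 1.63. H2-Q8, another Q region gene, had 396 ± 31.8 in WT2, 641 ± 29.6 in V7 and 624 ± 4.30 in C5. Its differences of 0.69 and 0.65 from WT2 were below 2-fold (limma adjusted p of 0.00322 and 0.00427). In the authors' deposited table H2-Q8 was 2.05-fold higher in V7 than in WT2. Cd1d1, the class I-like molecule that presents lipids, fell from 437 ± 59.3 to 187 ± 35.96 in V7 (−1.21, adjusted p = 0.00480) and 202 ± 84.0 in C5 (−1.15, adjusted p = 0.00609). The V7 call of Cd1d1 was lost without V7 aliquot 1 (adjusted p = 0.0525) and without the variance trend (0.0747), and the C5 call without C5 aliquot 2 (0.0613) and without the trend (0.0821). Its second probe set was lower by 1.02 on the log2 scale in V7, a difference of −1.02 that was called, and −0.84 in C5, below 2-fold. That call was lost under 4 alternatives, among them those without WT2 aliquot 1 (−0.94) and without V7 aliquot 2 (−0.80).

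Interferon gamma signalling induces MHC and immunoproteasome genes. Of 18 regulators 3 had a named probe set, of which Ifngr1 and Jak1 fell in V7 and C5 and Socs1 did not pass. Among all named entries 994 of 2441 were called lower in V7 and 963 in C5. The receptor chain Ifngr1 read 1199 and 1346 in WT2, 242 and 237 in V7, and 195 and 157 in C5. Every V7 and C5 array was far below WT2, with log2 differences of −2.38 in V7 (SE 0.16, limma adjusted p = 9.01e-07) and −2.82 in C5 (SE 0.16, adjusted p = 2.23e-07). Between C5 and V7 it differed by −0.44 (adjusted p = 0.599), while the authors' deposited table has it 2.32-fold lower in C5. The receptor-bound kinase Jak1 fell from 1283 ± 48.8 to 562 ± 2.49 in V7 (−1.18, SE 0.13, adjusted p = 3.76e-05) and 528 ± 17.9 in C5 (−1.27). Its dimmer probe set was also called in V7 (−1.05) and C5 (−1.01), calls that were lost under 4 and 7 of the 13 alternatives, among them those without WT2 aliquot 1 (adjusted p of 0.0533 and 0.0584), V7 aliquot 1 (0.141 for V7), WT2 aliquot 2 (0.0548 for C5) and C5 aliquot 2 (0.147 for C5). Socs1, an inhibitor of this pathway, differed by 0.62 and 0.54 from WT2 and did not pass (limma adjusted p of 0.112 and 0.158). In the authors' deposited table Socs1 was 2.04-fold higher in V7 than in WT2. The class II regulator Ciita and the class I regulator Nlrc5 had no named probe set and were not analysed here.

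Endosomal proteases differed in direction. Ctsl, a lysosomal protease that degrades the invariant chain in thymic epithelium, rose from 313 ± 24.4 to 747 ± 76.0 in V7 (1.24, SE 0.14, limma adjusted p = 8.14e-05) and 733 ± 58.9 in C5 (1.22). Lgmn, the asparaginyl endopeptidase of endosomes, fell from 75.3 ± 19.2 to 13.8 ± 10.95 in V7 (−2.20, SE 0.51, adjusted p = 0.00800) and 7.61 ± 4.76 in C5 (−2.70, adjusted p = 0.00226). Its V7 call was lost without WT2 aliquot 1 (adjusted p = 0.0639) and without V7 aliquot 2 (0.0722). Pdia3, a chaperone of the class I loading complex, read 20.0 ± 6.26, 32.4 ± 1.22 and 41.8 ± 5.28 on a probe set made from an expressed sequence tag. Pdia3 was 2.1-fold higher in V7 than in WT2 in the authors' deposited table. Its differences from WT2, 0.60 and 0.92, did not pass (limma adjusted p of 0.229 and 0.0667), though that of C5 did without WT2 aliquot 2 (1.18, adjusted p = 0.0407) and after quantile normalization (1.12, adjusted p = 0.0294).

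**Figure D3:**
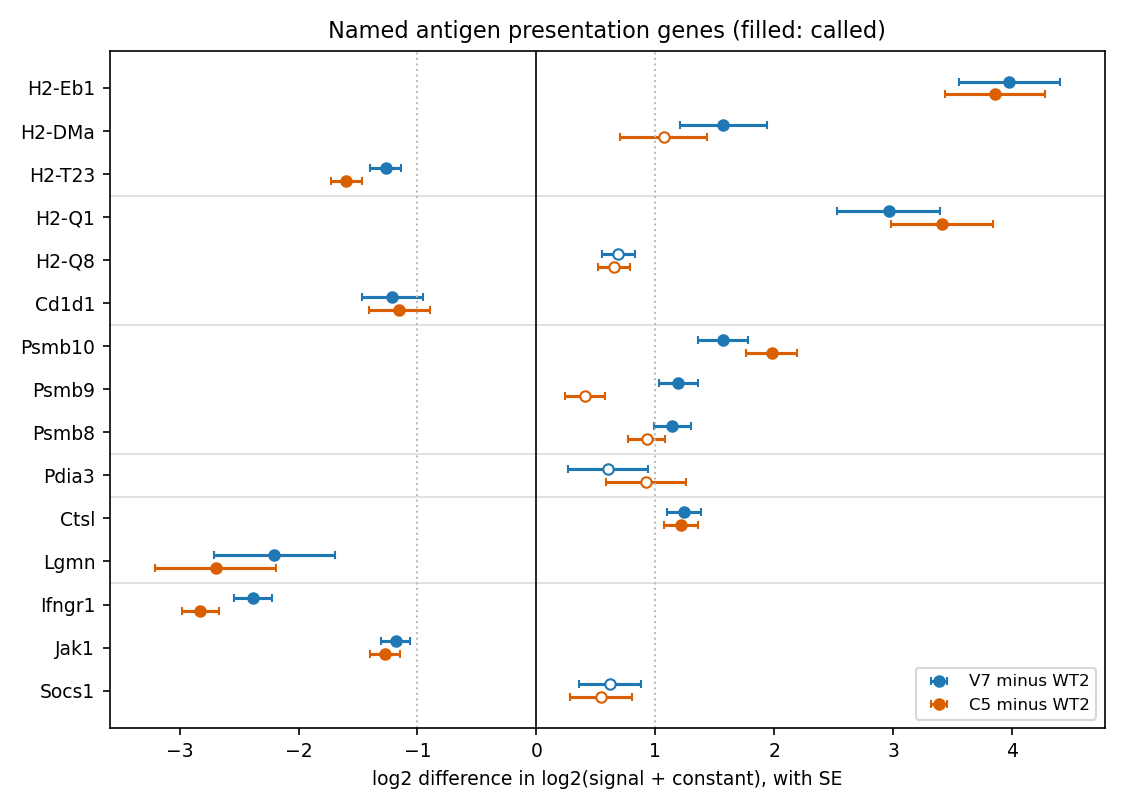
Log2 difference from WT2 (with SE) of the 4 members and the 11 other named antigen presentation genes, V7 in blue and C5 in orange, filled where called, with grey lines between groups of genes. H2-Eb1 and H2-Q1 stand farthest to the right and Ifngr1 and Lgmn farthest to the left.

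The 4 members did not share 1 profile. Likeness was measured as the root mean square distance over the 6 arrays between log2 profiles, each centred on its own mean. The closest members were H2-DMa and Psmb10 at 0.54, and the farthest were H2-Eb1 and H2-T23 at 2.56. For each member the 3 nearest of 1362 named probe sets of other genes were found. H2-T23 was nearest to Furry homolog-like at 0.084, Signal transducing adaptor family member 1 at 0.085 and Transducin (beta)-like 1 X-linked at 0.093, where the median over all candidates was 1.16. Psmb10 was nearest to Methylmalonic aciduria (cobalamin deficiency) type A at 0.12, bromodomain containing 4 at 0.15 and a prolyl 4-hydroxylase subunit, alpha II, at 0.18, against a median of 0.83. H2-DMa was nearest to Ras-GTPase-activating protein SH3-domain binding protein 1 at 0.21, Protein arginine N-methyltransferase 6 at 0.22 and Zinc finger protein, multitype 1 at 0.22, against a median of 0.91. The nearest to H2-Eb1 were Acid phosphatase, prostate, at 0.33, Histone cluster 1, H2bc, at 0.38 and Homeo box A7 at 0.39, against a median of 1.58. All of these had been listed by the authors for a difference between the same arrays.

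**Figure D4:**
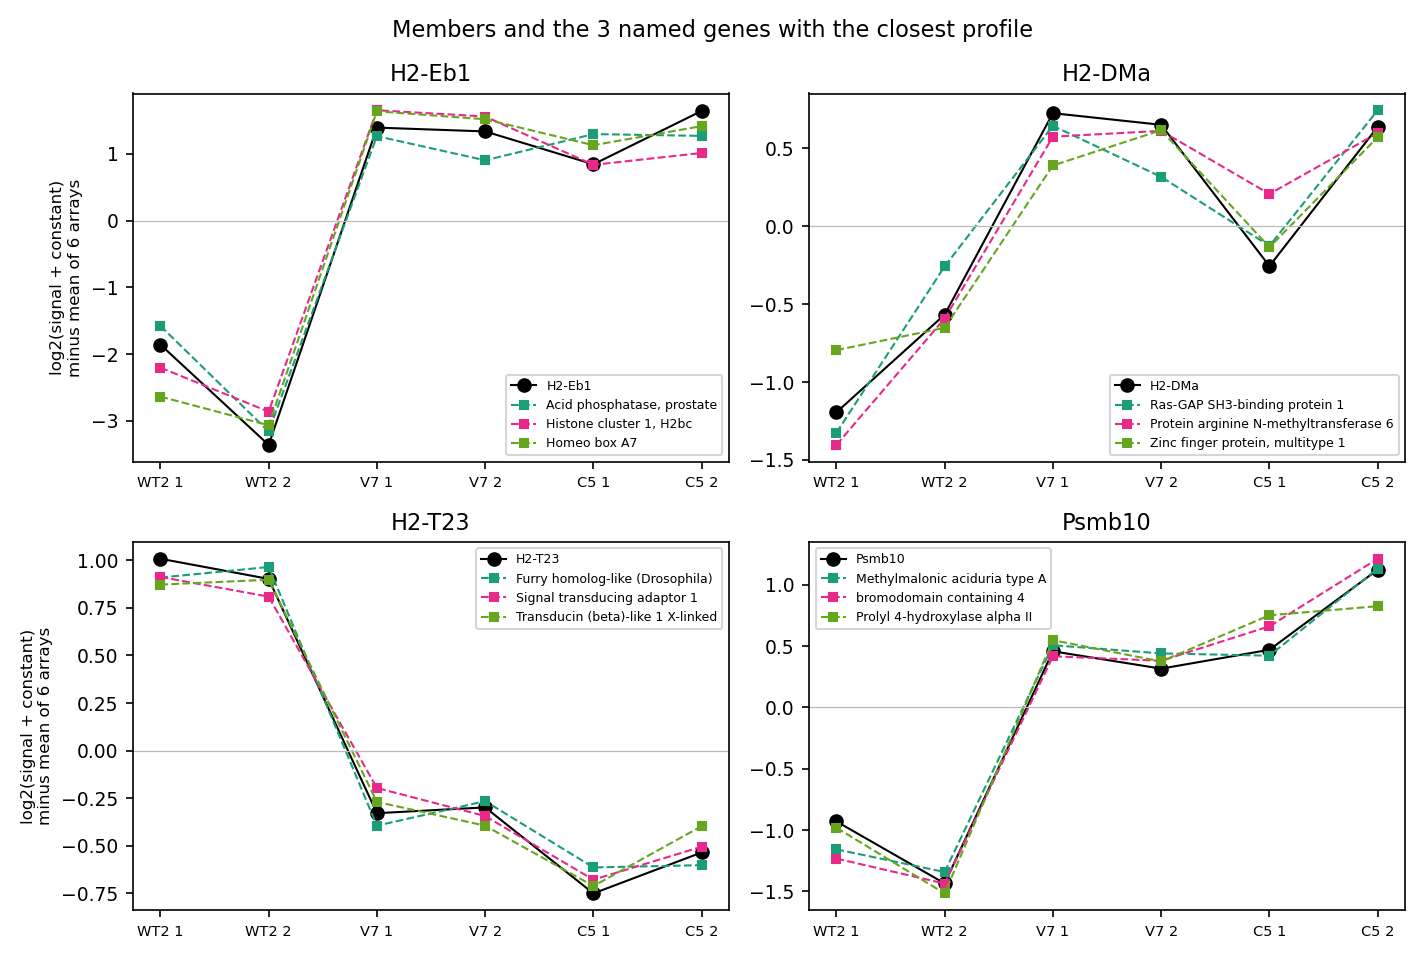
Profiles over the 6 arrays of each member (black circles) and of the 3 named genes nearest to it (coloured squares), as log2(signal + 5.04) minus the mean of the 6 arrays. Each member's neighbours follow its step between WT2 and the other lines, and for H2-DMa they share the lower C5 aliquot 1.

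Differences from WT2 kept their direction under every alternative run. The call of H2-Eb1, H2-T23 and Psmb10 against WT2 held in all 13 for both V7 and C5. With any array left out, the V7 difference ran from 3.22 to 4.73 for H2-Eb1, from 1.26 to 1.88 for H2-DMa, from −1.32 to −1.22 for H2-T23 and from 1.32 to 1.82 for Psmb10.

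**Figure D5:**
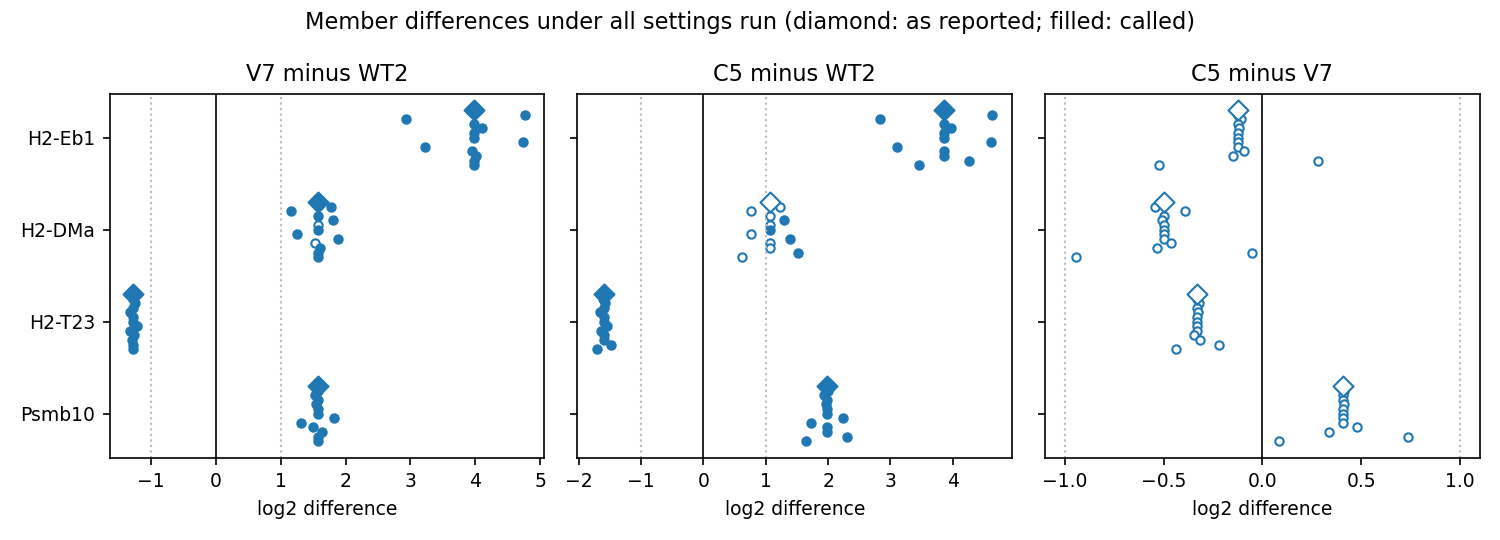
Log2 difference of each member in each comparison as reported (diamonds) and under the other 12 settings of data treatment (small circles), filled where called. H2-DMa is the only member whose calls against WT2 vary, and no member is called between C5 and V7 under any setting.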

How the data were processed

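The samples were 6 arrays, 2 aliquots of each line WT2, V7 and C5. The deposited intensity table held linear MAS5 signals per probe set, per the submitters' processing notes, which give no version, and the values show that the authors scaled each array to one trimmed mean. Per the file headers, the deposited lists hold log2 means with standard errors, a fold ratio, and a p-value and adjusted p-value. These lists gave gene names and were otherwise only quoted.

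Here 64 control probe sets were left out, signals were taken as log2(signal + 5.04), and the 27022 probe sets whose mean exceeded the 40th percentile (11.7) were fitted in limma 3.58.1 (R 4.3.3) with 1 mean per line, moderated variances with a trend and Benjamini-Hochberg adjustment, two-sided. All 4 members passed this filter. The fit was also run on simulated data with normal noise. That run could not test departures from such noise near the floor, and nothing is read from it. Tables and figures used Python 3.11.15, numpy 2.4.6, pandas 2.3.3 and matplotlib 3.10.9. Symbols came from the deposited full name and, where a RefSeq accession was deposited, from RefSeq. For a gene with several probe sets, the brightest stood for it. The text names the members, every gene of the pathway lists with a named probe set, and the 3 nearest profiles per member. Candidates for these had 1 placed gene name and no probes shared between transcripts. Members, lists and tests were chosen with earlier results of these data known. Alternatives were 1 or the median signal added, no filter, quantile normalization, no variance trend, each array left out, the aliquot number as a block, and no fold limit. No detection calls were used, and the number of arrays limits the precision.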

Additional observations from a re-analysis of the deposited data

How the results depend on the processing

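With 2 arrays per line, 1 clone per phenotype and names only for probe sets that the authors had listed, a member's second probe set, if any, was not analysed here. Of 52 values of the members per comparison under alternatives, 50 of V7 minus WT2, 48 of C5 minus WT2 and all 52 of C5 minus V7 kept their side of the threshold, the exceptions being H2-DMa as given above. H2-Eb1 in C5 minus V7, never called, ran from −0.52 to 0.28. For the 11 other genes (13 probe sets) 169 values per comparison gave 13 lost and 1 gained call for V7 minus WT2, and 9 and 7 for C5 minus WT2. Over all probe sets, calls without the fold limit were 6650 against 3386 in V7 minus WT2 and 6946 against 3525 in C5 minus WT2. In C5 minus V7 the 27 calls became 55 with the median signal added, 4 without the trend and 15 with the aliquot number as a replicate block, and ran from 5 to 68 with 1 array left out: 65 and 68 without WT2 aliquot 1 and 2, 5 without either V7 aliquot, and 6 and 7 without C5 aliquot 1 and 2. The cause was not tested. Deviations of same-numbered aliquots correlated across probe sets at −0.04 to 0.04, so the numbers gave no sign of pairing. In the replicate block fit the calls in V7 minus WT2 were 3267 and in C5 minus WT2 3437. Where quantile normalization was used, calls in V7 minus WT2 were 1704 higher and 1541 lower instead of 1430 and 1956, and in C5 minus WT2 1805 and 1748 instead of 1509 and 2016.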

Other observations

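Entries outside the lists were chosen after their values had been seen. The probe set deposited as similar to an H-2 Q4 class I precursor went from 31.1 ± 1.73 in WT2 to 133 ± 4.05 in V7 and 103 ± 2.86 in C5 (SD, n = 2 each; log2 differences 1.94 and 1.58, limma adjusted p of 5.70e-05 and 2.51e-04). It may share probes with other class I genes. Among other proteasome entries, the core subunit alpha type 5 was higher in V7 (1.39) and C5 (1.25), where the limma adjusted p was 2.71e-04 and 5.25e-04. The ATPase subunit 6 of the 26S particle (0.72 and 0.62) and assembly chaperone 3 (0.92 and 0.78) were below 2-fold in both comparisons with WT2.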
